A study of Mus musculus with 6 samples.

Results

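The miRNAs miR-219a and miR-338 were followed in RNA bound to Argonaute (Ago) in mouse brain. They were taken as every sequence whose annotated miRNA was mmu-miR-219a-5p, mmu-miR-219a-2-3p, mmu-miR-338-3p or mmu-miR-338-5p, which gave 4 of the 782 miRNAs and 216 of the 65087 sequences above 0 in at least 1 mouse. The 216 sequences were 80 of miR-219a-5p, 40 of miR-219a-2-3p, 64 of miR-338-3p and 32 of miR-338-5p. Both miRNAs are known as markers of oligodendrocytes, the glial cells that make myelin.

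Brains of 3 WT mice were compared with those of 3 Tau tg mice, labelled Tau fragment tg, which carried a human tau fragment driven by the Thy 1.2 promoter, a promoter used for expression in neurons. Per the study's methods all 6 were 3-month-old males, and the transgenic line was on a C57BL/6J background. Tissue was given as hippocampus by the sample labels and as cortex together with hippocampus by the protocol. Ago proteins were captured with a GW182 peptide, and the RNA they held was sequenced. Levels are in RPM, reads scaled to a fixed library size, so a level here is a share of the Ago-bound RNA.

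During the maturation of oligodendrocytes, miR-219 and miR-338 rise and repress messages that hold the precursor state, among them those of the receptor PDGFRα and the transcription factors Sox6 and Hes5. A miRNA hairpin is cut into a 5p and a 3p arm, and Ago keeps 1 arm as the guide while most copies of the other are lost. Target choice rests largely on the seed near the 5′ end of the guide. Cuts at slightly different places and bases added after cutting give isoforms, and an isoform with another 5′ end has another seed.

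The sequences of the 4 miRNAs are shown because the seed of each sets the group of reads it was counted with. Capitals mark the seed, bases 2 to 8. The sequences of miR-219a-5p, miR-338-3p and miR-338-5p are the RefSeq mature miRNAs, and that of miR-219a-2-3p is its most abundant read. No pair of the 4 shared a seed.
mmu-miR-219a-5p: uGAUUGUCcaaacgcaauucu
mmu-miR-219a-2-3p: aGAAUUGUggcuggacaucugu
mmu-miR-338-3p: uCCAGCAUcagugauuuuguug
mmu-miR-338-5p: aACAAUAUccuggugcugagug

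The 4 came from 3 hairpins, all on the minus strand of GRCm38. Mir338 lies at chr11:120014765-120014862 in an intron of Aatk, a kinase gene on the same strand, and gives both arms of miR-338. Mir219a-2 lies at chr2:29845631-29845727 outside protein-coding genes, with Urm1 629 bp away, and gives miR-219a-5p and miR-219a-2-3p. Mir219a-1 lies at chr17:34024983-34025092 in an exon of the long noncoding RNA Gm26940 and gives a miR-219a-5p of the same sequence. The hairpins (RefSeq, GRCm38.p6) are shown with the arms studied here in capitals, since the bases after the 5p arm differ between the pair of miR-219a hairpins.
Mir338: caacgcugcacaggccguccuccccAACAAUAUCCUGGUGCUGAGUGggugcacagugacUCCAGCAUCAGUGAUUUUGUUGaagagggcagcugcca
Mir219a-2: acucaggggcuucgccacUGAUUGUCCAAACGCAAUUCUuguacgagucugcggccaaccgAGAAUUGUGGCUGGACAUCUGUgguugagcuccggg
Mir219a-1: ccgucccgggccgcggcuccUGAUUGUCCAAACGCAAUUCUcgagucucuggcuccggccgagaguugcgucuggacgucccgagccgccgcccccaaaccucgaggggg

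The deposited sequences held 998248 to 6879551 reads per library, and mature miRNAs made up 82.7% to 92.4% of their RPM. A count of 3 reads, taken as the floor, corresponded to 0.427 to 2.75 RPM. Intervals and floors given here cover counting error only, because PCR copies cannot be told from separate molecules. The labels give separate mouse numbers for the Tau tg samples only, while the study's methods give 3 control mice. The p-values measure the spread between these samples, part of which may be technical.

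Among the 4 miRNAs, miR-219a-5p was the most abundant on average. It was present at 3312 RPM in WT 1, 9236 in WT 2 and 4719.6 in WT 3, against 6368 in Tau tg 1, 3227 in Tau tg 2 and 5971 in Tau tg 3. WT 2 stood highest, the lowest value was in Tau tg 2, and the groups overlapped. The group means were 5756 ± 3095 RPM (WT) and 5189 ± 1710 RPM (Tau tg, SD, n = 3 each).

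The guide arm of the other hairpin, miR-338-3p, was at 6594, 3819 and 2937 RPM (WT) against 6593, 6257 and 4175 RPM (Tau tg). Its highest WT value, in WT 1, equalled its highest Tau tg value to within counting error. The means were 4450.1 ± 1908 RPM and 5675 ± 1309.7 RPM (SD, n = 3). In 3 of the 6 mice miR-338-3p was above miR-219a-5p, and in the other 3 it was below, so the order of these neighbours was not fixed.

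The 3p arm of Mir219a-2, miR-219a-2-3p, was at 1193, 535 and 785 RPM (WT) against 1036, 1142 and 862.5 RPM (Tau tg). WT 2, the mouse with the most miR-219a-5p, had the least miR-219a-2-3p. The partner arm miR-338-5p was at 526, 306 and 451 RPM in the 3 WT brains and 704, 580.4 and 294 RPM in the 3 Tau tg brains. In all 6 mice miR-219a-2-3p was below both guide arms and above miR-338-5p. Among the 782 miRNAs ranked by mean RPM, miR-219a-5p was at place 38, miR-338-3p at place 42, miR-219a-2-3p at place 107 and miR-338-5p at place 158.

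**Figure D1:**
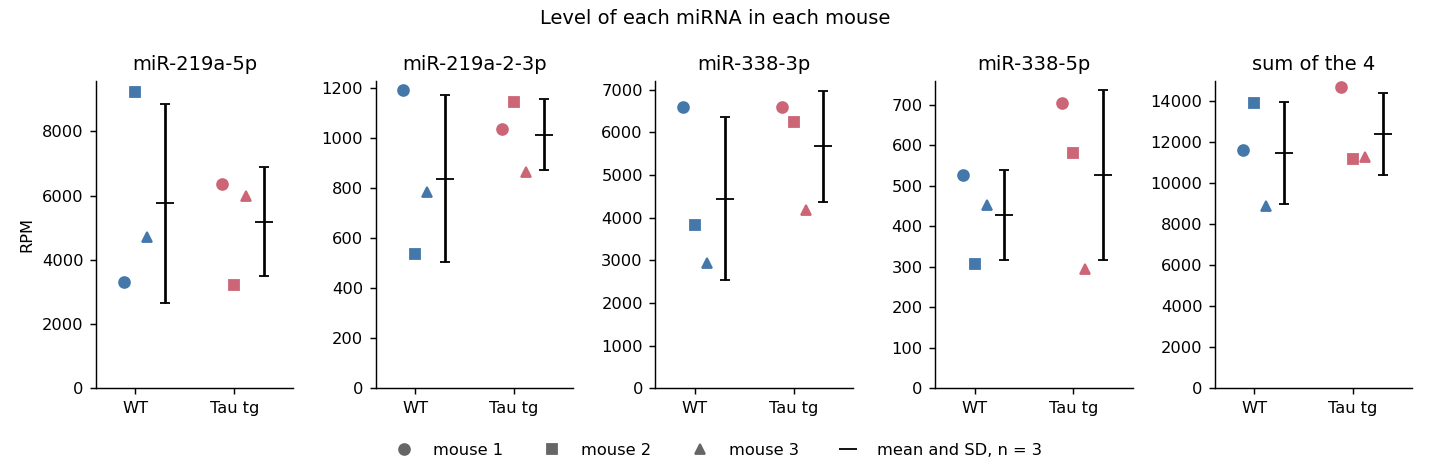
Level of miR-219a-5p, miR-219a-2-3p, miR-338-3p, miR-338-5p and their sum in each mouse, in RPM (y axes from 0, with a scale of their own), for 3 WT and 3 Tau tg mice. Points are mice and black bars the mean with SD. The groups overlap in every panel, and the sum spans a 1.65-fold range against 2.23-fold to 2.86-fold for the single miRNAs.

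Counting error was small beside these differences. The 95% interval of miR-219a-5p was at most 154 RPM on either side, and that of miR-338-5p at most 43.2 RPM. Over the 6 mice the coefficient of variation was 41.3% for miR-219a-5p, 33.6% for miR-338-5p, 31.8% for miR-338-3p and 26.8% for miR-219a-2-3p. Their sum varied less, by 17.5%.

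None of the 4 miRNAs passed the test between Tau tg and WT. On the log2(RPM + 1) scale the change was 0.41 (SE 0.35) for miR-338-3p, with an unadjusted p of 0.261 and an adjusted p of 0.896 (limma, Benjamini-Hochberg over 689 miRNAs). It was 0.34 (SE 0.36, adjusted p = 0.896) for miR-219a-2-3p and 0.24 (SE 0.41, adjusted p = 0.937) for miR-338-5p. For miR-219a-5p it was -0.08 (SE 0.39, adjusted p = 0.972). With standard errors of this size, a p above the threshold does not show equal levels.

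The median change of all 689 miRNAs was itself 0.25. Relative to it, miR-338-3p stood at 0.16, miR-219a-2-3p at 0.095, miR-338-5p at -0.00396 and miR-219a-5p at -0.32. That median depended on the setting, at 0.15 over the 476 miRNAs of at least 10 RPM, 0.050 with edgeR and 0.0060 with DESeq2. At an unadjusted p under 0.05 limma called 0 of the 4, edgeR 0 and DESeq2 0, and the background over all miRNAs was 3.63% (25 of 689) by limma. Of the same 689 miRNAs edgeR called 29 and DESeq2 37 that way. After adjustment limma called none of the 689 (0%), edgeR none and DESeq2 5. The groups overlapped for each of the 4, whereas 9.53% of the 472 miRNAs above 0 in every mouse had groups without overlap.

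Leaving out WT 1 brought miR-338-3p to a change of 0.73 with an unadjusted p of 0.0428 (limma). It was the single leave-out that brought any of the 4 below an unadjusted p of 0.05. In that fit 50 of all 677 miRNAs were called that way, 37 of them higher, and the median change was 0.34. The adjusted p of miR-338-3p over all its alternatives stayed between 0.634 and 0.964. Without WT 2 the change of miR-219a-5p was 0.33, and without Tau tg 2 it was also above 0.

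**Figure D2:**
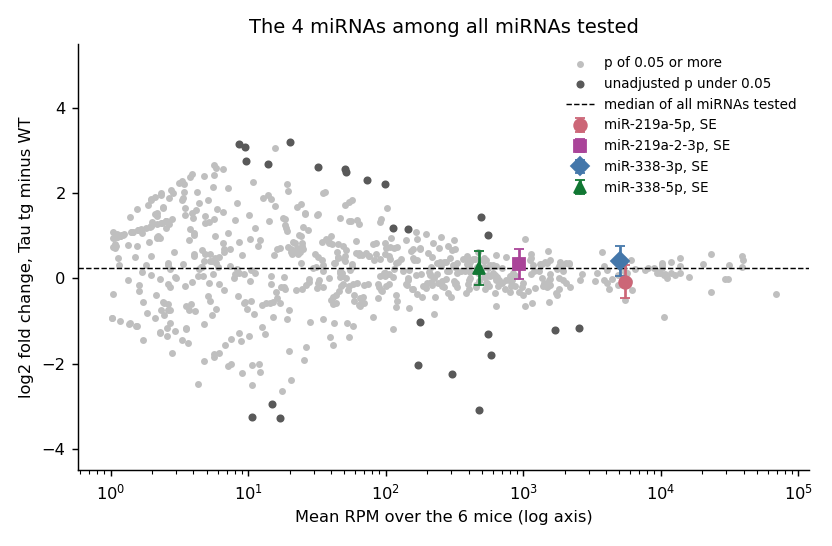
Log2 fold change (Tau tg minus WT, log2(RPM + 1) scale) against mean RPM over the 6 mice (log axis) for 689 miRNAs. Coloured symbols with SE bars are miR-219a-5p, miR-219a-2-3p, miR-338-3p and miR-338-5p, dark points have an unadjusted p under 0.05, and the dashed line is the median of 0.25. The SE bars of all 4 cross the dashed line.

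Summed, the 4 came to 11625, 13896 and 8894 RPM (WT) against 14701, 11207 and 11302 RPM (Tau tg). The mean sum was 11471 ± 2505 RPM and 12403 ± 1990.0 RPM (SD, n = 3), and the exact two-sided permutation test gave p = 0.7. With 3 mice against 3 the smallest p this test can give is 0.1. In both groups the 4 made up 1.43% of all miRNA RPM. Read as a measure of oligodendrocytes, such a sum is limited, because in bulk tissue fewer cells of a type and less of the RNA per cell cannot be told apart.

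Ratios within a library do not depend on its scaling. The ratio of miR-338-3p to miR-338-5p was 12.6, 12.5 and 6.51 in WT and 9.36, 10.8 and 14.2 in Tau tg, so the 3p arm led in every mouse. The log2 ratio differed by 0.16 between the groups (exact two-sided permutation p = 0.8, n = 3). For miR-219a the 5p arm led. The ratio of miR-219a-2-3p to miR-219a-5p was 0.36, 0.058 and 0.166 in WT and 0.163, 0.354 and 0.144 in Tau tg, a 6.22-fold range over the 6 mice (exact p = 0.9). WT 2 alone gave the lowest ratio, while WT 1 and Tau tg 2 gave nearly the same high ratio.

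The 2 arms of miR-219a together were 0.633, 2.37 and 1.62 times those of miR-338 in WT and 1.02, 0.639 and 1.53 times in Tau tg. The whole 3.74-fold range lay within the WT mice, with an exact permutation p of 0.6. Against miR-124-3p, a miRNA of neurons, the 4 stood at 0.129, 0.175 and 0.143 in WT and at 0.234, 0.16 and 0.237 in Tau tg. Transgenic mice 1 and 3 were above every WT mouse, while number 2 lay inside the WT range. The log2 difference was 0.49 with an exact permutation p of 0.2. Part of it lay in miR-124-3p, with means of 77313 ± 14129 RPM (WT) and 60257 ± 11426 RPM (Tau tg, SD, n = 3). Adjusted over the 13 ratios, sums and isoform measures tested this way, no p was below 0.867.

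**Figure D3:**
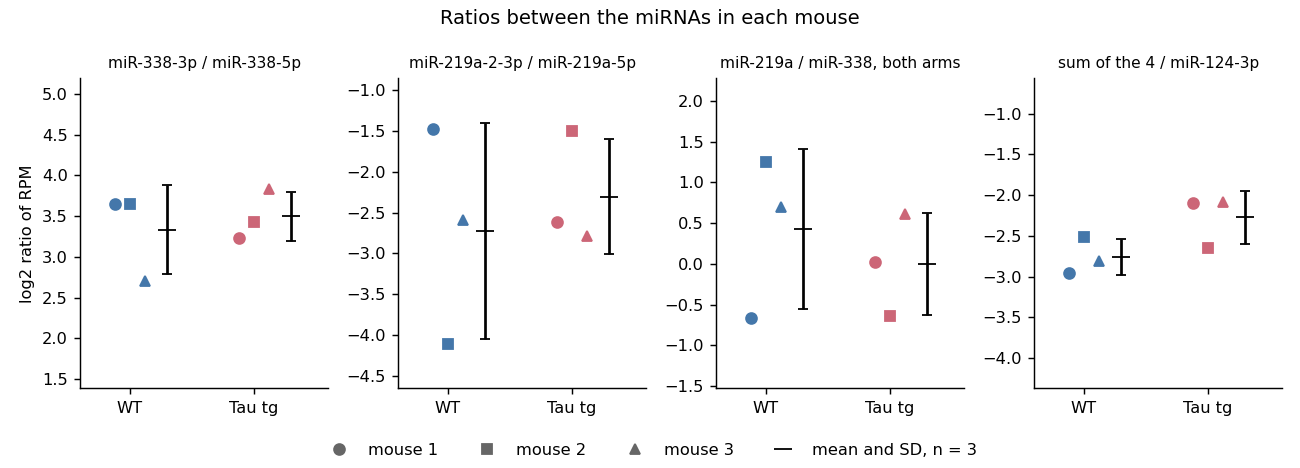
Log2 ratios of RPM in each mouse for miR-338-3p to miR-338-5p, miR-219a-2-3p to miR-219a-5p, both arms of miR-219a to both arms of miR-338, and the sum of the 4 to miR-124-3p. Points are mice, black bars the mean with SD (n = 3), and all panels span the same number of log2 units. The miR-219a arm ratio has the widest spread, 6.22-fold, and the groups overlap in each panel.

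Across the 6 mice the levels of the miR-219a arms were negatively correlated, short of the adjusted threshold. On the log2(RPM + 1) scale, Pearson's r between miR-219a-5p and miR-219a-2-3p was -0.829 (exact permutation p = 0.0403, adjusted p = 0.188 over 6 pairs), and Spearman's rho was -0.714 (exact p = 0.136, adjusted p = 0.363). Without WT 2 and Tau tg 2, the mice farthest from the median, r was -0.475, so the relation rested on them. The arms of miR-338 gave r = 0.673 and rho = 0.6 (exact permutation p = 0.183 and 0.242). For miR-219a-2-3p and miR-338-3p r was 0.762 and rho 0.886 (exact permutation p = 0.0625 and 0.0333, adjusted p = 0.188 and 0.2), and without WT 1 and WT 2 r was 0.945. No pair passed the adjustment.

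The pattern over the 6 mice was compared with the 272 miRNAs of at least 100 RPM on average, as a description. The miRNAs most like miR-219a-2-3p were miR-151-5p (r = 0.998), miR-181c-3p (0.978) and miR-23b-3p (0.977). Those most like miR-338-3p were miR-195a-5p (0.974), miR-379-3p (0.97) and miR-16-5p (0.955), and those most like miR-338-5p were miR-598-3p (0.919), miR-143-3p (0.913) and miR-194-5p (0.91). For miR-219a-5p they were miR-708-5p (0.884), miR-33-5p (0.875) and miR-384-3p (0.862). Both arms of miR-219a and of miR-338 were left out of the miRNAs compared, so their absence from these lists is no result. All values of a mouse share 1 library and its depth.

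Reads of the 4 miRNAs were next compared by their ends. Isoforms of miR-219a-5p differed mainly at the 3′ end. Its 3 most abundant reads, shown with the seed in capitals because they differ only in their last bases, ended 1 base beyond, at, and 2 bases beyond the RefSeq 3′ end.
miR-219a-5p, 22 nt: uGAUUGUCcaaacgcaauucuu
miR-219a-5p, 21 nt: uGAUUGUCcaaacgcaauucu
miR-219a-5p, 23 nt: uGAUUGUCcaaacgcaauucuug

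The 22-nt read of miR-219a-5p was at 1139.7, 6292 and 1672 RPM (WT) against 3060.1, 1248 and 3171 RPM (Tau tg). WT 2 was again the highest, with 68.1% of its miR-219a-5p in this 1 read against 34.4% to 53.1% in the other mice. The 21-nt read was at 502, 1405 and 1763 RPM in the 3 WT brains and 1463, 973 and 1312 RPM in the 3 Tau tg brains. The 23-nt read varied least, from 754 RPM in Tau tg 2 to 1285 RPM in Tau tg 1, a 1.7-fold range against 5.52-fold for the 22-nt read. The changes of the 3 reads between the groups were 0.0045, 0.20 and 0.052 on the log2(RPM + 1) scale, with adjusted p from 0.789 to 0.995 (limma).

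The most abundant read of the 3p arm of miR-338 in every mouse ended at the RefSeq 3′ end. It held 61.55%, 53.96% and 34.3% of the RPM in WT and 56.3%, 54.1% and 46.9% in Tau tg. This 22-nt read was at 4058, 2061 and 1008 RPM (WT) against 3711, 3385 and 1957 RPM (Tau tg). The 21-nt read was at 1358, 899 and 727 RPM against 1567, 1797 and 1056 RPM, and the 23-nt read at 343, 286 and 605 RPM against 398, 344 and 530.3 RPM. WT 3, the mouse with the least miR-338-3p, had the most of the 23-nt read. For these 3 reads, in the order given, the log2 changes were 0.51 (SE 0.40), 0.58 (SE 0.45) and 0.097 (SE 0.52), none of which passed the adjustment.

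In miR-219a-2-3p a single 22-nt read held 71.1% to 79.98% of the RPM, at 954, 401 and 604 RPM in the 3 WT brains and 737, 859 and 637 RPM in the 3 Tau tg brains. In miR-338-5p the leading read was 1 base shorter than the RefSeq miRNA, at 21 nt, and held 52.3% to 64.85% of the RPM. It was at 299.8, 159.9 and 274 RPM (WT) against 457, 371 and 155 RPM (Tau tg). The RefSeq-length read of miR-338-5p held only 0.288% to 19.1%.

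**Figure D4:**
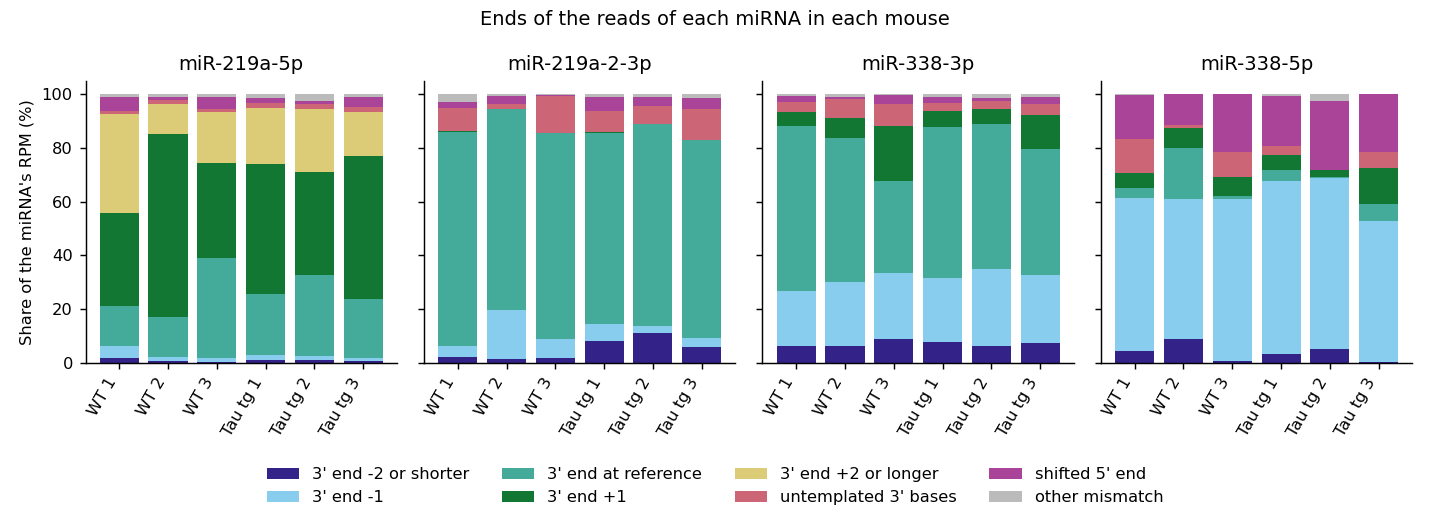
Share of the RPM of each miRNA (y axis, %) by the ends of its reads in each of the 6 mice, for miR-219a-5p, miR-219a-2-3p, miR-338-3p and miR-338-5p. Colours give the 3′ end relative to the reference miRNA for reads that match the hairpin, then reads with untemplated bases, with a shifted 5′ end, and with other mismatches. In miR-219a-2-3p the dark band of ends 2 or more bases short is 1.39% to 1.89% in WT and 5.64% to 11.2% in Tau tg.

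The 5′ end, which sets the seed, was less variable. Reads at the reference 5′ end were 93.9% to 97.8% of miR-219a-5p, 93.8% to 99.3% of miR-219a-2-3p and 96.4% to 98.4% of miR-338-3p. In miR-338-5p they were 83.2%, 88.5% and 78.5% in WT and 80.8%, 71.9% and 78.6% in Tau tg. Most shifted reads of miR-338-5p, 10.9% to 21.3% of its RPM, started earlier than the RefSeq miRNA. The group difference in reads at the 5′ end of miR-338-5p was -6.305 percentage points (exact permutation p = 0.3, adjusted p = 0.867). The mean read length of miR-338-3p was 21.7 nt in each WT mouse and was lower by 0.053 nt in Tau tg on average (exact permutation p = 0.2).

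Single isoforms were tested among all sequences. Of the 216 sequences, 146 had a mean of at least 1 RPM and were tested, and these held 99.65% of the RPM of the 4 miRNAs. At an unadjusted p under 0.05 limma called 9 of the 146 (6.16%), 7 higher and 2 lower in Tau tg, against 2.23% of all 36070 sequences tested. With the count models the order turned round: edgeR called 3 of the 146 (2.05%) against 7.11% of all sequences, and DESeq2 called 4 of the 145 with a p (2.76%) against 9.27%. The 9 were 1 of 55 in miR-219a-5p, 2 of 25 in miR-219a-2-3p, 4 of 45 in miR-338-3p and 2 of 21 in miR-338-5p. Fitted on sequences of at least 10 RPM alone, the count was 3 of 37 and the background 4.28%. After adjustment none of the 146 was called by limma, edgeR or DESeq2, and the smallest adjusted p by limma was 0.259. Of all 36070 sequences limma called 10 after adjustment (0.0277%), edgeR 49 and DESeq2 459. Among the 44 tested isoforms above 0 in every mouse, 5 had groups without overlap, against 9.22% of such sequences in the whole table.

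Both isoforms with the smallest p were low in every WT mouse. They are shown because 1 is cut short at the 3′ end and keeps its seed, while the other starts 2 bases early and has another seed. Capitals mark bases 2 to 8.
miR-219a-2-3p, 20 nt: aGAAUUGUggcuggacaucu
miR-338-5p, 21 nt, early start: cCAACAAUauccuggugcuga

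The 20-nt read of miR-219a-2-3p was at 12.6, 6.78 and 12.8 RPM in the 3 WT brains and 72.6, 128 and 47.9 RPM in the 3 Tau tg brains, with no overlap. These were 10 to 27 reads in WT and 117 to 510.0 reads in Tau tg. The change was 2.77 (SE 0.81) on the log2(RPM + 1) scale, with an unadjusted p of 0.000611 and an adjusted p of 0.383 (limma). The 22-nt read that holds most of miR-219a-2-3p had a change of 0.27 (SE 0.48), and the 21-nt read one of -0.79 (SE 0.74).

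The early-start read of miR-338-5p was at 0.937, 2.03 and 9.17 RPM in WT, which were 2, 3 and 10 reads, against 37.4, 71.9 and 25.8 RPM in Tau tg, which were 263, 86 and 63 reads. All Tau tg mice were above all WT mice. The change was 3.43 (SE 0.94) with an unadjusted p of 0.000273 and an adjusted p of 0.259 (limma). By edgeR the unadjusted p was 0.0169 for this read and 0.00695 for the 20-nt read of miR-219a-2-3p, and by DESeq2 it was 0.058 and 0.0716.

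Of the other named isoforms with an unadjusted p under 0.05, 3 were reads of miR-338-3p that start 1 base late, and so have the 6mer seed CAGCAU in place of CCAGCA. They are shown because they share that start and differ only at the 3′ end.
miR-338-3p, late start, 21 nt: cCAGCAUCagugauuuuguug
miR-338-3p, late start, 22 nt: cCAGCAUCagugauuuuguuga
miR-338-3p, late start, 20 nt: cCAGCAUCagugauuuuguu

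The 21-nt late-start read was at 28.6, 6.098 and 16.5 RPM in the 3 WT brains and 88.4, 35.1 and 43.4 RPM in the 3 Tau tg brains (log2 change 1.76, SE 0.81, adjusted p = 0.584). The 22-nt read was at 21.1, 2.03 and 18.3 RPM (WT) against 41.7, 25.9 and 38.9 RPM (Tau tg). These were 45, 3 and 20 reads against 293, 31 and 95. The 20-nt read went the other way, at 42.6, 16.3 and 18.3 RPM in the 3 WT brains and 11.5, 0 and 13.5 RPM in the 3 Tau tg brains. These were 91, 24 and 20 reads against 81, 0 and 33, and the 0 in Tau tg 2 allows up to 2.51 RPM. The nearest WT and Tau tg values of both reads thus rested on few reads. All late-start reads of miR-338-3p together were 0.728% to 3.12% of its RPM in WT and 1.12% to 2.65% in Tau tg, so the groups overlapped in the class as a whole.

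The remaining isoform was a 23-nt read of miR-219a-5p with an untemplated U, at 9.37, 60.3 and 0 RPM (WT) against 52.8, 19.2 and 42.6 RPM (Tau tg), with overlap. Its change of 2.07 (SE 0.89) had an adjusted p of 0.584 and was 0.52 without WT 3, the mouse with 0 reads, which allows up to 2.75 RPM.

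**Figure D5:**
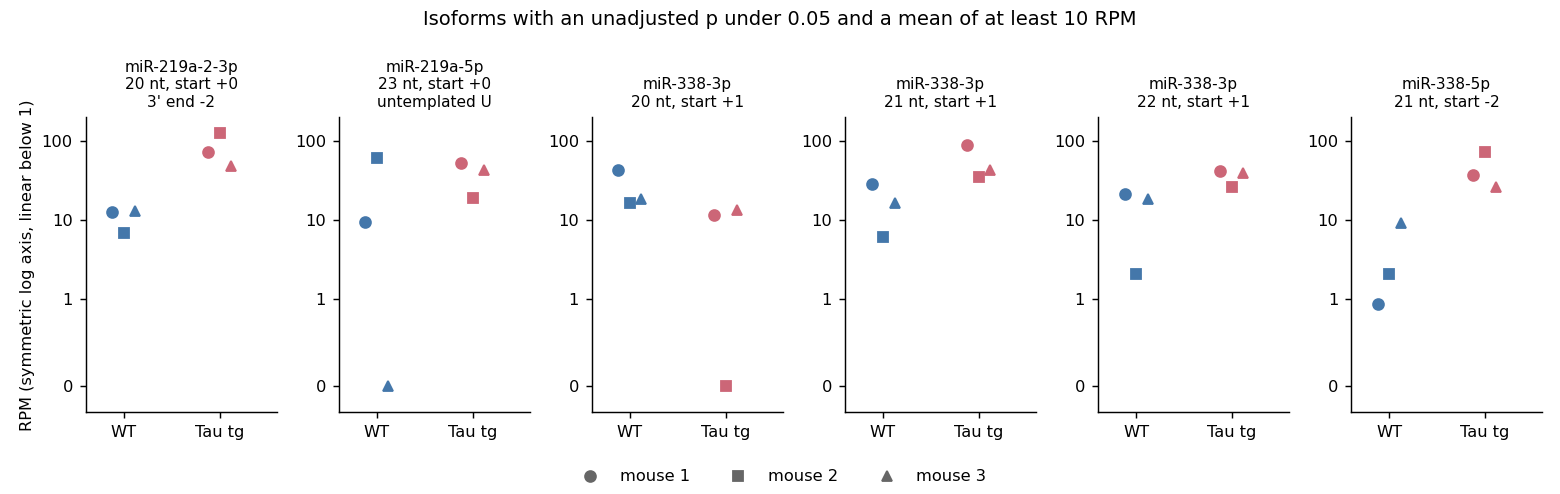
RPM of the 6 isoforms with an unadjusted p under 0.05 and a mean of at least 10 RPM in each mouse (y axis symmetric log, linear below 1), for 3 WT and 3 Tau tg mice. Each panel names the miRNA, the read length and the start relative to the reference miRNA. The groups do not overlap in 5 of the 6 panels, and none of the 6 passed the adjustment. The panels were chosen by p from these same data. Of all sequences above 0 in every mouse, 9.22% had groups without overlap. The 20-nt late-start read of miR-338-3p, at 0 in Tau tg 2, lies outside that set.

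Grouped by their ends, 27 classes held at least 1% of a miRNA's RPM on average, and 3 of these had groups without overlap. That count leaves out 8 pooled classes at that level (all tailed reads and all reads with a shifted 5′ end), of which 2 had groups without overlap. No share of such classes was computed for other miRNAs, so the counts have no background. Ends of miR-219a-2-3p that were 2 or more bases short were 1.885%, 1.39% and 1.75% in WT and 8.19%, 11.2% and 5.64% in Tau tg. The 20-nt read described above was 7.01%, 11.2% and 5.55% in Tau tg, so this class largely repeats that read. Reads of miR-338-3p with untemplated A alone were 2.735%, 4.49% and 5.46% in WT and 1.75%, 1.91% and 2.685% in Tau tg. Late-start reads of miR-338-5p were 0.267%, 0.665% and 0.203% in WT and 1.11%, 6.05% and 0.836% in Tau tg. All of miR-338-5p was 1122, 451 and 492 reads in WT and 4948, 694 and 718 reads in Tau tg. Shares of it under 1% therefore rested on a few reads, near the floor of 3. Of the pooled classes, tailed reads of miR-219a-5p were 1.06%, 1.52% and 0.991% in WT and 1.82%, 1.63% and 1.645% in Tau tg. Reads of miR-219a-2-3p with a shifted 5′ end were 2.24%, 3.04% and 0.351% in WT and 5.19%, 3.44% and 4.22% in Tau tg. These classes were looked at after their values were known and were not tested.

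By 6mer seed, bases 2 to 7, each miRNA held most of the reads that shared its seed. The share was 98.5% to 99.2% for miR-219a-5p (GAUUGU), 95.3% to 98.99% for miR-219a-2-3p (GAAUUG), 95.9% to 99.02% for miR-338-3p (CCAGCA) and 89.3% to 99.7% for miR-338-5p (ACAAUA). In limma over 3987 seeds the changes were -0.06 for GAUUGU, 0.27 for GAAUUG, 0.38 for CCAGCA and 0.08 for ACAAUA. None of the 4 was called at an unadjusted p under 0.05, where 4.31% of seeds were, or after adjustment, where 0.125% were. That of GAUUGU turned positive with median-of-ratios scaling, edgeR and DESeq2. Without WT 1 that of CCAGCA was 0.70 with an unadjusted p of 0.0479 (limma). In that fit 232 of all 3947 seeds were called that way.

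The deposited table gives each 6mer seed a viability, the percentage of cells that survive a short RNA with that seed averaged over 3 murine cell lines, so that low values mark toxic seeds. It was 88.5 for the seed of miR-219a-5p, 78.7 for miR-338-5p, 71.4 for miR-338-3p and 65.1 for miR-219a-2-3p. Weighted by RPM, the mean over the reads of the 4 was 75.4, 82.4 and 79.45 in WT and 78.3, 75.6 and 79.3 in Tau tg. The mean over all sequences was 57.2 to 59.4, so the 4 stood above it in each mouse. Leaving them out lowered the mean over all sequences by 0.197 to 0.365 and left the group difference at -0.753 against -0.75.

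The seed of the early-start read of miR-338-5p, CAACAA, had a viability of 75.7, and that of the late-start reads of miR-338-3p, CAGCAU, one of 62.7. Both were below the viability of the reference seed of their miRNA.

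Other products of the same loci were near the floor. Of 7 miRNAs from the same hairpins or the hairpins on the opposite strand (miR-219a-1-3p, miR-219b, miR-219c and miR-3065), 6 had a row, none above 6.1 RPM in any mouse. Only 2 were tested, with none called at an unadjusted p under 0.05 by limma, where 3.63% of all 689 miRNAs were.

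Of 9 other miRNAs linked to oligodendrocytes or myelin, 0 rose and 0 fell at an unadjusted p under 0.05 by limma, where 3.63% of all 689 miRNAs were called. Their median change was -0.10 beside 0.25 for all miRNAs. The most abundant was miR-138-5p, known for promoting early steps of oligodendrocyte differentiation, which ranged from 7259.7 to 10533 RPM (WT) and from 6556 to 12043 RPM (Tau tg). Of the others, miR-23a-3p, which represses lamin B1 in oligodendrocytes, ranged from 3751 to 5370.0 RPM with a change of -0.02 (SE 0.29).

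Marker miRNAs of other cell types were summed over lists of known markers. Neuron markers (5 miRNAs) were at 128823 to 132437 RPM (WT) against 109317 to 133849 RPM (Tau tg), microglia and leukocyte markers (6) at 2093 to 2512 and 2191 to 2922 RPM, and vessel markers (3) at 6274.5 to 12767 and 9279 to 13205 RPM. Red blood cell markers (3) were at 729 to 1186.5 and 780.3 to 1294 RPM, and choroid plexus and ependyma markers (4) at 2289.7 to 5477 and 2245 to 10844 RPM. None of the miRNAs in these lists was called at an unadjusted p under 0.05 by limma. Of all 689 miRNAs 3.63% were, so lists this short would hold few calls in any case. Epithelial markers, miR-200a-3p, miR-200b-3p and miR-429-3p, were at 1621 to 6466 RPM (WT) against 1118 to 1386 RPM (Tau tg), without overlap. Their limma changes of -1.21, -1.79 and -3.09 each had an unadjusted p under 0.05, with adjusted p from 0.188 to 0.896 (limma). The part of these cells in the levels of miR-219a and miR-338 was not tested.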

How the data were processed

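Ago-bound short RNAs of 3 WT and 3 Tau tg mouse brains were sequenced. Per the study's methods, reads were trimmed (the submitters' processing notes name Trim Galore), compiled into unique sequences, cleared of rare reads, annotated with BLAST against small RNAs and freed of artificial sequences. The deposited values are RPM as scaled by the authors, and the columns sum to 915719 to 978886. The deposited viability score per 6mer seed was used as it stands, and a deposited total column was left out. The table has 109434 rows, of which 44347 at 0 in all 6 samples were dropped. Whole reads were recovered from the RPM steps for 99.84% to 99.99% of values (tolerance 0.02 read), which gave 998248 to 6879551 reads per sample.

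RPM were summed per mature miRNA by exact name, per sequence and per 6mer seed. limma 3.58.1 with a mean-variance trend was run on log2(RPM + 1) where the mean reached 1 RPM, with Benjamini-Hochberg adjustment over all rows. It was run on simulated data with changes far larger than those of the 4 miRNAs, which does not show its power for them. A fold change on this scale understates the change of low rows. Single values were compared by exact two-sided permutation over the 20 assignments, with adjustment over 13 measures. Alternatives were pseudocounts of 0.1 and 5, no filter or 10 RPM, other scalings, no trend, count models fitted to the recovered reads (edgeR 4.0.16, DESeq2 1.42.0), a replicate block, reads of 19 to 25 nt, a looser name match, scaling to miRNA reads only, and leaving out each sample.

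Sequences and positions come from RefSeq (GRCm38.p6), which gave 3 of the 4 mature miRNAs, and gene overlaps from GENCODE M21. For miR-219a-2-3p the most abundant read served as the reference. Reads were placed on the hairpins, allowing up to 3 untemplated bases at the 3′ end after at least 14 matched bases. Named isoforms were the 3 most abundant per miRNA and any with a mean of at least 10 RPM and an unadjusted p under 0.05. The members, the lists of 7 and 9 related miRNAs and the cell type markers (neuron, microglia and leukocyte, vessel, red blood cell, choroid plexus and ependyma, epithelium) were chosen with earlier results of these data known. The software was R 4.3.3 and Python 3.11.15 with SciPy 1.17.1, pandas 2.3.3 and Matplotlib 3.10.9.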

Additional observations from a re-analysis of the deposited data

How the results depend on the processing

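The adjusted calls on the 4 miRNAs, their seeds and their isoforms did not change under any alternative run. Directions changed as follows (log2 change in Tau tg). The seed GAUUGU, of miR-219a-5p, went from -0.06 to 0.20 with median-of-ratios scaling, 0.33 with edgeR and 0.20 with DESeq2. The 22-nt read of miR-219a-5p was at -0.17 with median-of-ratios, -0.075 with quantile normalization, -0.28 with edgeR and -0.51 with DESeq2, the 21-nt read at -0.19 with DESeq2, and the 23-nt read at -0.12, -0.037 and -0.098 with median-of-ratios, quantile and DESeq2. The 23-nt read of miR-338-3p was at -0.074 with median-of-ratios and -0.13 with DESeq2, and that of miR-338-5p at -0.070 with median-of-ratios. The cause was not tested.

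By limma 9 of the 4 miRNAs' isoforms had an unadjusted p under 0.05, 6.16% of those tested against 2.23% of all sequences. The count was 14 with a pseudocount of 0.1 (9.59% against 2.85%) and 5 with one of 5 (3.42% against 1.19%). It was 3 with a filter of 10 RPM (8.11% against 4.28%) and 5 without trend (3.42% against 1.64%). With edgeR it was 3 (2.05% against 7.11%) and with DESeq2 4 (2.76% against 9.27%). The share of the isoforms thus lay above that of all sequences in these limma fits and below it with the count models. Over all sequences limma called 803 that way (519 higher in Tau tg), edgeR 2565 (358 higher) and DESeq2 3344 (260 higher), and quantile normalization 735 (567 higher). Over all miRNAs 14 of 25 were higher with limma, 7 of 24 with quantile normalization and 7 of 29 with edgeR, and the median change of 0.25 was 0.095 with median-of-ratios scaling.

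With 1 mouse left out the changes ran from -0.41 to 0.33 for miR-219a-5p, from -0.014 to 0.62 for miR-338-5p, from -0.41 to 0.36 for GAUUGU, from -0.013 to 0.55 for GAAUUG and from -0.21 to 0.43 for ACAAUA. The number of the 4 miRNAs at an unadjusted p under 0.05 ran from 0 to 1. The summed level differed by -357 to 2144 RPM, the log2 arm ratio by -0.15 to 0.32 for miR-338 and by -0.27 to 1.045 for miR-219a. The percentage at the reference 5′ end differed by -0.022 to 1.93 for miR-219a-5p and by -0.86 to 0.12 for miR-338-3p, and the mean read length by -0.10 to 0.059 nt for miR-219a-5p and by -0.11 to 0.0095 nt for miR-219a-2-3p. Of the named isoforms, the 22-, 21- and 23-nt reads of miR-219a-5p ran from -0.50 to 0.73, -0.35 to 0.55 and -0.16 to 0.24, the 22-nt read of miR-219a-2-3p from -0.039 to 0.59, the 23-nt read of miR-338-3p from -0.13 to 0.41 and that of miR-338-5p from -0.13 to 0.52.

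No pairing of the mice by replicate number was seen in the values. The deviations of same-numbered mice from their group means correlated at -0.033, -0.112 and 0.111 over 476 miRNAs. Mice of different numbers gave -0.209 to 0.176. Whether same-numbered samples were processed together was not tested. With the replicate block 0 of the 4 miRNAs had an unadjusted p under 0.05, and 22 of all 689 miRNAs did in place of 25. Of their isoforms 9 did (6.16%), against 2.24% of all sequences. Fewer than 3 reads lay below 2.75 RPM in the shallowest library, so rare isoforms could not be compared. With 3 mice a group, an exact permutation test cannot go below 0.1.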

Other observations

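Reads of miR-219a-5p that run 2 bases past the stretch shared by both hairpins show which hairpin they match, since Mir219a-2 continues with UG and Mir219a-1 with CG. This was looked at after the data were seen. In WT 1 none of 2874 such reads matched Mir219a-1, which allows a share of up to 0.104%, and in Tau tg 2 none of 950, which allows up to 0.316%. The share was 8.77% in WT 2 (95% Wilson interval 7.46% to 10.3%), 12.5% in WT 3 (10.6% to 14.6%), 3.12% in Tau tg 1 (2.8% to 3.48%) and 4.96% in Tau tg 3 (4.17% to 5.89%). Mice therefore differed by more than counting error, within both groups, and the WT and Tau tg ranges overlapped. No group test was run. WT 1 and Tau tg 2, the mice without such reads, were also the mice with the least miR-219a-5p and the highest ratio of miR-219a-2-3p to miR-219a-5p. A base added or misread at the 3′ end would be counted with either hairpin, and its part was not tested. Counting reads with only 1 telling base as well, the mean share over the 6 mice was 1.59% in place of 4.89%, and the highest was 5.64%.

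An A-tailed read of miR-338-3p, chosen after its values were seen, was at 155, 139 and 140.4 RPM (WT) against 87.7, 87.0 and 87.6 RPM (Tau tg). The spread within each group was small, with means of 145 ± 8.93 RPM and 87.4 ± 0.365 RPM (SD, n = 3). The groups did not overlap, as was so for 9.22% of all sequences above 0 in every mouse. The read was not among the isoforms that limma called at an unadjusted p under 0.05. As a share of miR-338-3p it was 2.35% to 4.78% in WT and 1.33% to 2.10% in Tau tg.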
